A study of Mus musculus with 28 samples.

Results

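The profiles described here are 2 of the 28 samples of the series, chosen by their labels: 4C-seq libraries whose viewpoint is the insertion site near Gria1, from mouse embryonic stem cells (ESC) carrying either the TFBS+CGI or the TFBS insert. In 4C-seq, chromatin is cut, religated and circularised, and every fragment joined to a chosen fragment, the viewpoint, is amplified and sequenced. Both inserts derive from PE Sox1, a poised enhancer (PE) of the neural gene Sox1. The TFBS insert holds the cluster of transcription factor binding sites of the enhancer, and the TFBS+CGI insert holds the same cluster with its neighbouring CpG island (CGI). Both were knocked into the topological domain (TAD) of Gria1 in line E14Tg2a and sampled at day 0, before any differentiation. The labels call the cells 2i+LIF ESC, while the growth protocol describes serum with LIF. The labels give neither the number of clones nor the copies of the insert per cell. Wild type (WT) ESC and ESC with the CGI insert, read from the same site, are given as levels beside the pair.

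A poised enhancer is a regulatory element that is bound in ESC but held inactive by Polycomb proteins until differentiation. CpG islands are stretches rich in CpG that recruit Polycomb and Trithorax proteins, and those without a gene of their own are called orphan. Gria1 encodes a subunit of AMPA-type glutamate receptors and is a neuronal gene silent in ESC. Its promoter is poor in CpG, unlike that of Gata6, the other gene near which the study placed these inserts. The question was what the CpG island adds to the contacts of the inserted binding sites near such a gene.

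The viewpoint, the fragment with the highest value, was the same in both libraries: chr11:56910361-56910414 (mm10), 101 kb upstream of Gria1 (gene ID 14799). This gene runs from 57011571 to 57330244, away from the viewpoint, and ends 419.9 kb from it. The library labelled TFBS+CGI held 7615835 reads and the TFBS library 2313468. The viewpoint fragment alone took 85.5% and 75.5% of them. Local reads, those within 1 Mb of the viewpoint with 10 kb on each side left out, numbered 417180 for TFBS+CGI and 130345 for TFBS. As a part of all reads these were 5.48% and 5.63%, with 1.33% in WT and 0.815% in CGI. With 1 library per condition there is no replicate error. All intervals below are 95% intervals of counting only, and since PCR copies were not marked by molecular identifiers they are narrower than the true error.

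The donor region near Sox1, where reads of an inserted copy would map, was read in the TFBS library and hardly at all in the library labelled TFBS+CGI. At chr8:12430220-12432553, 34.7 kb past the start of Sox1, 709 reads came from the TFBS library, 22 from WT, 3 from TFBS+CGI and 0 from CGI. A neighbouring fragment, chr8:12429908-12430215, was read 8 times in TFBS and 0 times elsewhere. Both inserts hold the TFBS cluster, so the low count in TFBS+CGI goes against what its label would give if this fragment lies in the cluster. The labels do not state where the insert begins and ends. Which genotype the library carries was not tested, and TFBS+CGI below means the library labelled so.

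The 2 libraries read largely different fragments of the same neighbourhood. Of 864 local fragments with reads in TFBS+CGI and 1238 in TFBS, 641 were read in both, 74.2% and 51.8% of each list. Most of these shared fragments were tall in 1 library and barely present in the other. The tallest local fragment of TFBS+CGI, chr11:56928540-56928596, had 7446 reads there and 27 in TFBS. The tallest of TFBS, chr11:56664558-56664772, lies in the non-coding gene Gm46261 on the side away from Gria1 and had 3802 reads there and 16 in TFBS+CGI. Among the 10 tallest fragments of each library, 9 in either direction had under 2% as many reads in the other. The exceptions were chr11:57023075-57023205 in Gria1, with 3972 reads in TFBS+CGI and 1472 in TFBS, and chr11:56944239-56944295, 33.9 kb from the viewpoint toward Gria1, with 2265 in TFBS and 322 in TFBS+CGI.

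This pattern held over all tall fragments. The 457 local fragments with at least 100 reads in TFBS+CGI had a median of 0.411% as many reads in TFBS, and 376 of them had under 2%. The 240 such fragments of TFBS had a median of 0.428% in TFBS+CGI, and 202 had under 2%. Over 10% as many were found for 48 and 36 fragments. The 200 tallest fragments on other chromosomes had medians of 0.266% from TFBS+CGI to TFBS and 0.370% from TFBS to TFBS+CGI, close to the local ones. Fewer of them were well read in both: 193 and 198 had under 2%, and 2 each way had over 10%. Whether these low counts are reads that passed between libraries was not tested. Leaving out fragments with under 2% of the reads of the other library removed 415 local reads of TFBS+CGI and 1265 of TFBS, 0.0995% and 0.971%, and reduced the shared fragments to 201 of 712 and 950, or 28.2% and 21.2%.

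**Figure D1:**
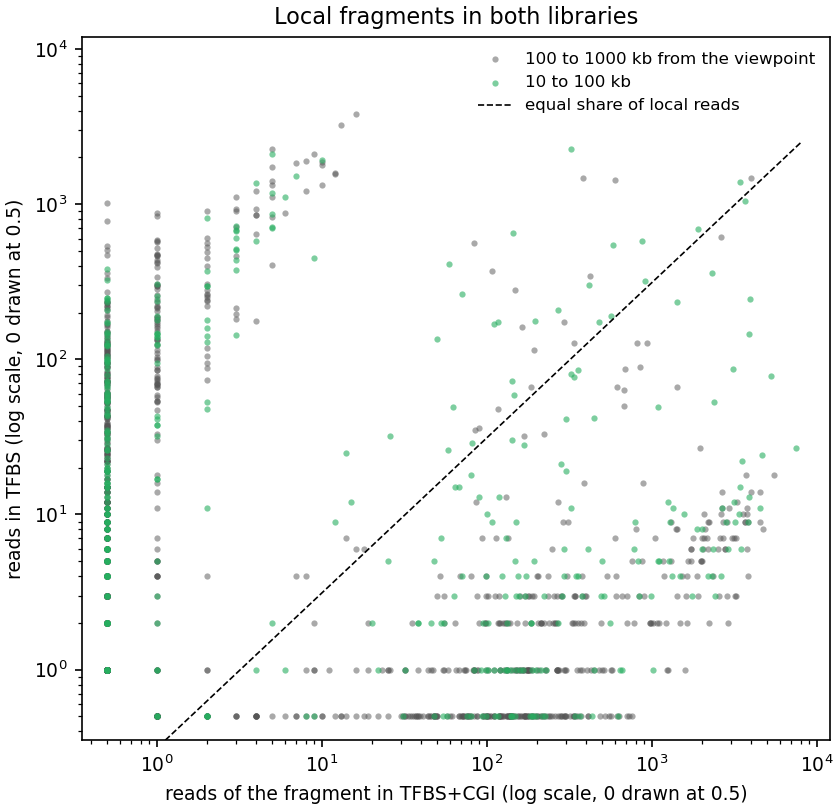
Reads of each local fragment in the library labelled TFBS+CGI (x axis) and in the TFBS library (y axis), both on log scales with 0 drawn at 0.5; the dashed line marks equal shares of local reads and green points lie 10 to 100 kb from the viewpoint. Points gather along the 2 arms near the axes, and of the 619 and 576 fragments with at least 10 reads in TFBS+CGI and TFBS, 115 reach that number in both.

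Fragments read well in both libraries lay mostly close to the viewpoint. With at least 10 reads required, 115 fragments were shared, 18.6% of 619 in TFBS+CGI and 20.0% of 576 in TFBS. From 10 to 50 kb the shared part was 42.0% of 112 and 38.2% of 123 fragments. From 500 to 1000 kb it was 6.43% of 140 and 8.04% of 112. If reads below 2% of the other library are not counted as shared, 38 fragments remain from 10 to 50 kb and 4 from 500 to 1000 kb. Even among the 115 shared fragments, 53 had at least 2-fold more of the local reads in TFBS+CGI and 31 at least 2-fold less. The log2 ratio of their shares had an SD of 4.13 between fragments.

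Other pairs of libraries from this site shared from 5.25% to 85.7% of a list. TFBS and WT shared 129 fragments with at least 10 reads, 22.4% of the TFBS list and 33.9% of the WT list, more of each than TFBS+CGI and TFBS shared. TFBS+CGI and WT shared 66, or 10.7% and 17.3%. TFBS+CGI and CGI shared 156, or 25.2% of the TFBS+CGI list and 85.7% of the 182 fragments of CGI. TFBS and CGI shared 53, or 9.20% and 29.1%, and WT and CGI 20 of 381 and 182 fragments. The order depends on how low counts are treated. With reads under 2% of the other library not counted as shared, TFBS+CGI and CGI kept 42 of 156, or 6.79% and 23.1%. TFBS+CGI and TFBS kept 79 of 115, or 12.8% and 13.7%, and TFBS and WT kept 118 of 129, or 20.5% and 31.0%.

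The libraries also differed in how reads were spread over fragments. TFBS+CGI had 483 reads per local fragment and TFBS 105. The 10 tallest local fragments took 11.8% of local reads in TFBS+CGI, 17.9% in TFBS, 24.2% in WT and 68.9% in CGI. Drawn down to the 130345 local reads of TFBS, TFBS+CGI is expected to keep 740 fragments against 1238 in TFBS. The gap lay among fragments with few reads: in 1 such draw TFBS+CGI had 158 fragments with under 10 reads where TFBS had 662, while 573 and 576 had at least 10 and 228 and 240 at least 100.

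In windows of 50 kb the profiles were closer to each other than fragment by fragment. All 40 windows could be read, meaning that equal shares would give at least 10 reads in each library. In 23 of them the shares lay within 2-fold and in 17 (42.5%) they did not: in 11 the TFBS+CGI share was higher by at least 2-fold (27.5% of windows) and in 6 it was lower (15% of windows). The median log2 ratio was 0.30, with an SD of 2.37 between windows. Across the 40 windows the shares had a Pearson correlation of 0.785 and a Spearman correlation of 0.717, which includes the fall with distance that all such profiles have. In windows of 10 kb the differences were wider. Of 170 readable windows, 67 were at least 2-fold higher in TFBS+CGI (39.4%), 59 were lower (34.7%) and 44 lay within 2-fold. Past 2-fold either way were 126, or 74.1%, with an SD of 3.95 and a Spearman correlation of 0.504 over all 198 windows.

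Windows of 10 kb differed more at larger distances. From 10 to 100 kb, 11 of 18 windows of 10 kb lay within 2-fold, 5 were higher in TFBS+CGI and 2 lower. From 100 to 500 kb, 26 of 79 readable windows lay within 2-fold. From 500 to 1000 kb, 7 of 73 did, with 37 higher and 29 lower. At 50 kb, 3 of 4 windows at 10 to 100 kb, 14 of 16 at 100 to 500 kb and 6 of 20 at 500 to 1000 kb lay within 2-fold.

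The strongest window of 10 kb lay next to the viewpoint in both libraries. The window starting 10 kb toward Gria1, chr11:56920388-56930387, held the largest share in each, 5.87% in TFBS+CGI and 6.17% in TFBS, where WT held 8.59% and CGI 16.2%. The next window outward held 3.96% and 3.47%. These were the only windows among the 5 highest of both libraries. TFBS+CGI had 3.92% at chr11:56810388-56820387, 90 to 100 kb from the viewpoint on the other side, where TFBS had 1.32% and WT 1.96%. It also had 3.02% at chr11:57030388-57040387, in Gria1 120 to 130 kb from the viewpoint, where TFBS had 0.259%. TFBS had 5.50% at chr11:56660388-56670387, in Gm46261, where TFBS+CGI had 1.39%, and 3.46% at chr11:57320388-57330387, at the far end of Gria1, where TFBS+CGI had 0.00671% on 28 reads.

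The most unequal windows rested on few fragments. At chr11:57860388-57870387, in the non-coding gene Gm33026, TFBS had 834 reads on 1 fragment and TFBS+CGI had 1 read, a log2 ratio of -11.38 (-16.69 to -8.90). At chr11:57250388-57260387, inside Gria1, TFBS had 531 reads on 6 fragments and TFBS+CGI had 1, a log2 ratio of -10.73 (-16.04 to -8.25). In the other direction, chr11:55940388-55950387 in the non-coding gene LOC105244170 had 3206 reads on 3 fragments in TFBS+CGI and 6 reads in TFBS, a log2 ratio of 7.38. The window chr11:57570388-57580387, with no annotated gene, had 2679 reads on 1 fragment in TFBS+CGI and 9 in TFBS, a log2 ratio of 6.54. WT had 0 reads there and CGI had 35.

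**Figure D2:**
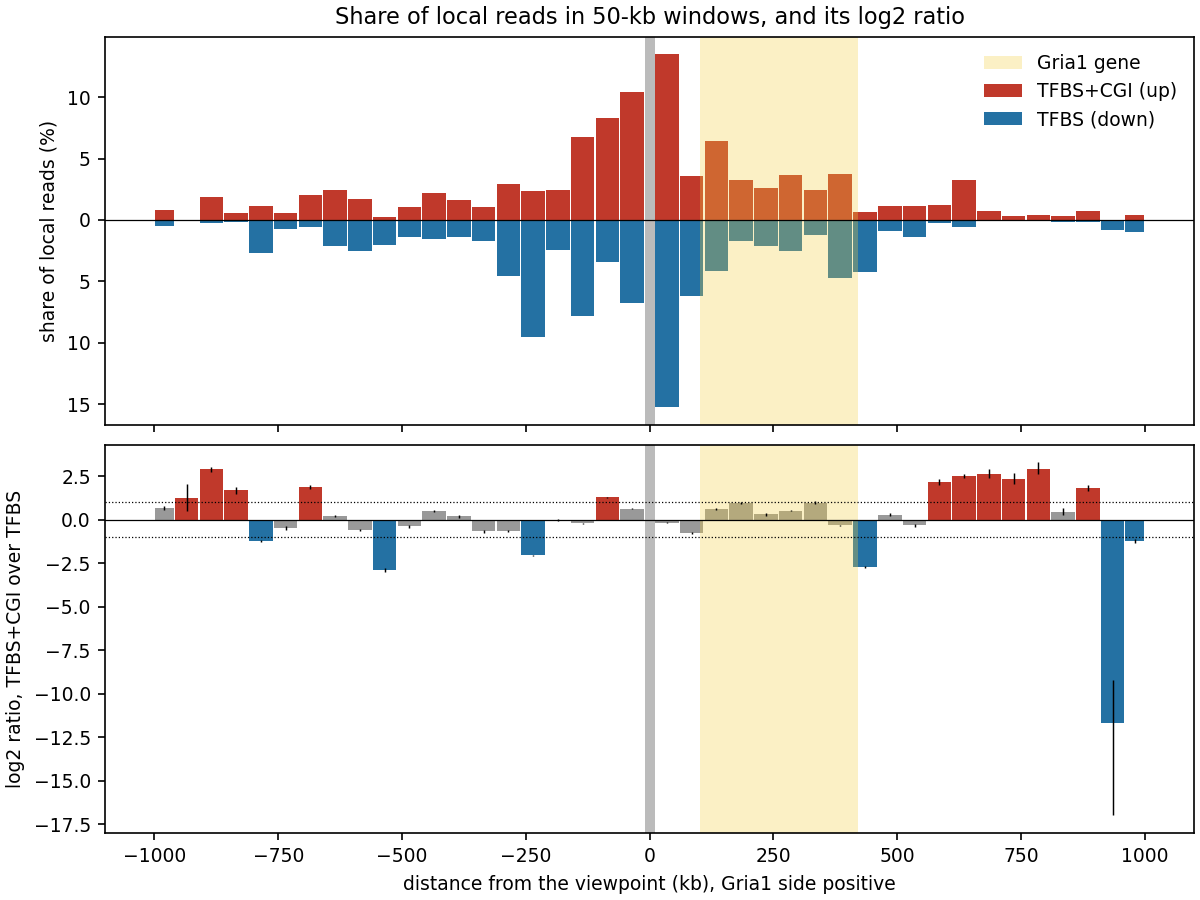
Upper panel: share of local reads (%) in 50-kb windows by distance from the viewpoint (kb, Gria1 side positive), TFBS+CGI drawn upward and TFBS downward; the yellow band is the Gria1 gene and the grey band the 20 kb left out. Lower panel: log2 ratio of TFBS+CGI over TFBS with 95% counting intervals, dotted lines at 2-fold and coloured bars past it; 11 windows are higher and 6 lower, and 7 neighbouring windows from 560 to 910 kb all lie above 0.

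Shares fell with distance at a similar rate over both sides together, but in TFBS the sides differed. From 10 to 50 kb to 500 to 1000 kb, the share per kb fell 13.3-fold in TFBS+CGI and 14.9-fold in TFBS over both sides together. Over 5 distance bins the slope was -0.75 in TFBS+CGI and -0.71 in TFBS (log2 share per kb for each doubling of distance). On the Gria1 side the slopes were -0.76 and -0.98, and on the other side -0.73 and -0.45. TFBS+CGI thus fell alike on both sides while TFBS fell faster toward Gria1. The median distance of a local read was 164 kb in TFBS+CGI and 215 kb in TFBS. WT had 211 kb and CGI 156 kb.

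The near share, from 10 to 100 kb, was 35.4% in TFBS+CGI (35.2% to 35.5%) and 31.2% in TFBS (30.9% to 31.4%), a log2 ratio of 0.18 (0.17 to 0.20). WT held 37.5% and CGI 41.6%. The near share of TFBS+CGI was the higher on the side away from Gria1 and the lower on the Gria1 side. There it held 9.59% from 10 to 50 kb and 9.01% from 50 to 100 kb, where TFBS held 5.72% and 4.41%, log2 ratios of 0.75 and 1.03. On the Gria1 side TFBS+CGI held 12.3% and 4.45% in these bins and TFBS held 13.9% and 7.17%, log2 ratios of -0.17 and -0.69. Counted as fragments with reads at matched depth, the near share was 28.9% in TFBS+CGI and 29.3% in TFBS, with the order turned.

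Farther out the order changed with the side. On the side away from Gria1, the 200 to 500 kb bin held 21.9% of local reads in TFBS and 10.8% in TFBS+CGI, a log2 ratio of -1.02, with 19.0% in WT. On that side the 50-kb window chr11:56650388-56700387, which holds part of Gm46261, held 9.56% in TFBS, 2.32% in TFBS+CGI, 8.58% in WT and 4.07% in CGI. The TFBS and WT reads lay in different parts of it. Its 10-kb window chr11:56660388-56670387, in Gm46261, held 5.50% in TFBS, 1.39% in TFBS+CGI and 0.275% in WT. The neighbouring chr11:56670388-56680387, with no annotated gene, held 0.393%, 0.212% and 5.20%. From 500 to 1000 kb on the same side both held 11.8%. On the Gria1 side TFBS+CGI held 9.05% at 100 to 200 kb and TFBS 6.18%, a log2 ratio of 0.55. At 200 to 500 kb they held 14.8% and 15.8%, and at 500 to 1000 kb 8.78% and 4.62%, a log2 ratio of 0.93. WT held 9.77% in this last bin, more than either.

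**Figure D3:**
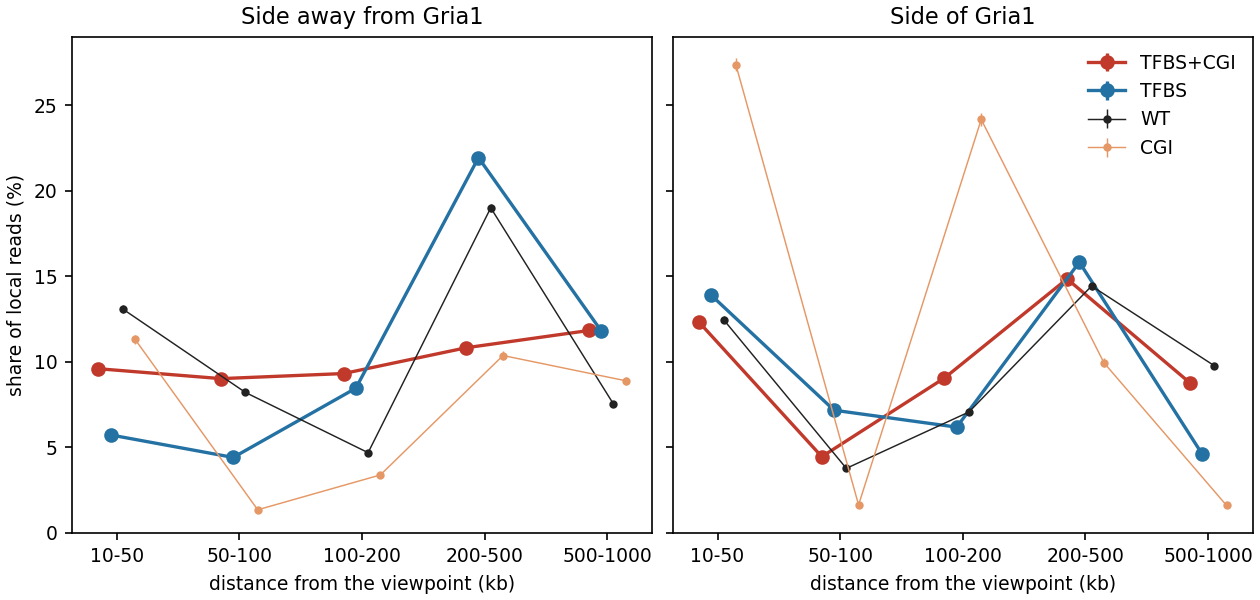
Share of local reads (%) by distance bin (kb) on the side away from Gria1 (left) and on the Gria1 side (right) for TFBS+CGI, TFBS, WT and CGI, 1 library each, with 95% counting intervals mostly smaller than the points. On the left TFBS rises to 21.9% at 200 to 500 kb where TFBS+CGI stays at 10.8%; on the right the pair lie closer until 500 to 1000 kb, at 8.78% and 4.62%.

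Neither library favoured the side of Gria1. That side held 49.4% of local reads in TFBS+CGI (49.3% to 49.6%) and 47.7% in TFBS (47.4% to 47.9%), a log2 ratio of 0.05 (0.04 to 0.07). WT was at 47.5%, and CGI at 64.7% with 1 fragment holding 33.5% of its reads on that side. Within 500 kb the shares of TFBS+CGI and TFBS were 51.2% and 51.5%, a log2 ratio of -0.0087 (-0.022 to 0.0051). The interval holds both signs, so the order there is not resolved.

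At the Gria1 promoter, the window of 5 kb on each side of the gene start held a smaller share in TFBS+CGI than in TFBS. It had 996 reads in TFBS+CGI, 0.239% of local reads (0.224% to 0.254%), and 1662 in TFBS, 1.28% (1.22% to 1.34%). The TFBS share was 5.34 times that of TFBS+CGI, a log2 ratio of -2.42 (-2.53 to -2.30). WT had 65 reads, 0.0643%, and CGI 6, 0.0116%. In this window both insert libraries in question lay above WT and CGI, with TFBS highest, but the order against WT depends on the window edge. Just outside it, 5.77 kb inside the gene, chr11:57017218-57017454 had 2246 reads in WT, 5 in TFBS and 0 in TFBS+CGI. The 10-kb window chr11:57010388-57020387 holds both the gene start and this fragment. There WT held 2.24%, TFBS 0.372% and TFBS+CGI 0.333%.

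Different fragments carried the promoter signal. In TFBS, 1361 of the 1662 reads lay on chr11:57009156-57009459, 2.26 kb before the start, which had 4 reads in TFBS+CGI. In TFBS+CGI, 674 of the 996 reads lay on chr11:57014547-57014836, 3.12 kb inside the gene, which had 50 reads in TFBS. Of 13 fragments read here in any of the 4 libraries, 7 were read in TFBS+CGI, 8 in TFBS and 4 in both, and 1 had at least 10 reads in both. The 5 kb before the start held 0.0292% in TFBS+CGI and 1.05% in TFBS, while the 5 kb from the start held 0.2095% and 0.224%, a log2 ratio of -0.10. Without the tallest fragment of each library the window held 0.0772% and 0.231%, a log2 ratio of -1.58. As a part of all local fragments with reads at matched depth the order turned, at 0.823% in TFBS+CGI and 0.646% in TFBS. This rests on the 7 and 8 fragments named above, before matching, and on unequal totals of 740 and 1238 local fragments. By number of fragments TFBS still had more.

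**Figure D4:**
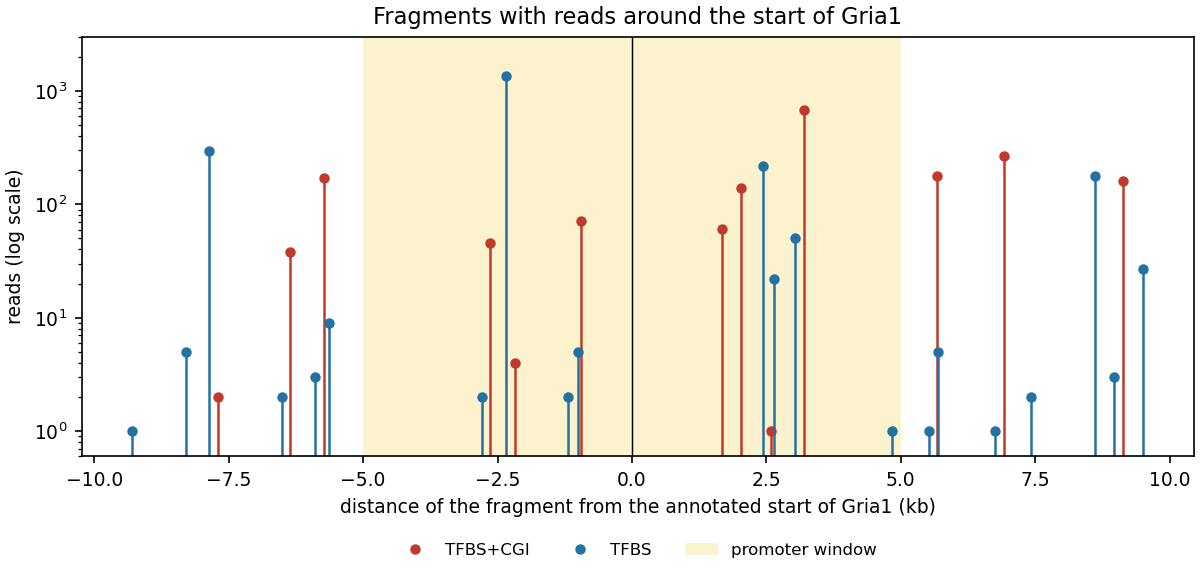
Reads (log scale) on each fragment within 10 kb of the annotated start of Gria1, by distance from the start (kb), in TFBS+CGI and TFBS; the points of a fragment are set slightly apart and the yellow band is the promoter window. The tallest TFBS fragment, with 1361 reads, stands before the start and the tallest of TFBS+CGI, with 674, inside the gene.

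Over the whole Gria1 gene with 5 kb on each side, the shares were close. TFBS+CGI had 94203 reads on 202 fragments, 22.6% of local reads (22.5% to 22.7%). TFBS had 27928 on 271 fragments, 21.4% (21.2% to 21.6%). The log2 ratio was 0.08 (0.06 to 0.10), WT held 16.1% and CGI 34.0%, of which 63.8% lay on 1 fragment. Of the 32 windows of 10 kb over the gene, 14 were at least 2-fold higher in TFBS+CGI and 8 lower, or 43.8% and 25% beside the 39.4% and 34.7% of all readable windows. Of 8 windows of 50 kb over the gene, 7 lay within 2-fold.

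Along the gene the balance shifted. The 50-kb window that holds the gene start, chr11:56970388-57020387, held 3.61% in TFBS+CGI and 6.16% in TFBS, a log2 ratio of -0.77. The next 5 windows were all higher in TFBS+CGI, with log2 ratios of 0.62, 0.95, 0.30, 0.53 and 0.97 in order from the start. The last 2 were lower, at -0.33 and -2.73. In the very last, chr11:57320388-57370387, which holds the gene end, TFBS+CGI had 0.643% and TFBS 4.27%, of which the tall fragment chr11:57326317-57326507 had 3231 of 5560 reads. That fragment had 13 reads in TFBS+CGI.

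The other 6 protein-coding genes within 1 Mb lie far from the viewpoint and were also measured with 5 kb on each side. Over these spans, 5 of them had more of the local reads in TFBS+CGI, each by at least 2-fold. Nmur2, a neuromedin U receptor gene at -869 kb (negative on the side away from Gria1), held 1.77% in TFBS+CGI on 7372 reads and 0.247% in TFBS on 322, a log2 ratio of 2.84 (2.68 to 3.00). On the Gria1 side, Fam114a2 (573 kb) held 2.06% and 0.283%, a log2 ratio of 2.86. Mfap3, a gene of a microfibril-associated protein at 608 kb, held 0.919% and 0.143%, a log2 ratio of 2.69. Galnt10, a glycosyltransferase gene that starts the O-linked glycosylation of proteins, lies at 735 kb and held 1.34% and 0.327%, a log2 ratio of 2.04. Sap30l, a gene of a histone deacetylase complex subunit at 891 kb, held 0.367% and 0.137%, a log2 ratio of 1.42. At Hand1, which encodes a regulator of cardiac and placental development, no read was found in TFBS+CGI: 0 reads allow a share of up to 0.000719%, counted as 3 reads of the local total. TFBS had 24 reads there.

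WT held 1.29% at Fam114a2 and 0.951% at Galnt10, nearer to TFBS+CGI than to TFBS. However, 1 fragment at each gene held 82.4% and 89.7% of these WT reads. At Nmur2, Mfap3 and Sap30l WT held 0.0534%, 0.0544% and 0.0129%, below both. In CGI the 5 genes held 0.277%, 0.277%, 0.141%, 0.316% and 0.0385% (Nmur2, Fam114a2, Mfap3, Galnt10 and Sap30l). These were only 144, 144, 73, 164 and 20 reads, where TFBS+CGI had 7372, 8586, 3834, 5610 and 1532. Whether some of these CGI reads passed between libraries was not tested. Beside the windows, 27.5% of all 50-kb windows and 39.4% of 10-kb windows were as much as 2-fold higher in TFBS+CGI, and beyond 500 kb, where these genes lie, 50% and 50.7% were.

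The gene ratios rest on few fragments, some of them outside the genes. The tallest TFBS+CGI fragments of Nmur2 (5509 reads), Fam114a2 (3771) and Sap30l (1531) lay in the added 5 kb, not in the gene. At Sap30l the fragments read in TFBS+CGI and TFBS all lay past the gene end. Shares without the added 5 kb were not computed. In TFBS+CGI 1 fragment held 74.7% of the Nmur2 reads, 3643 of 3834 reads of Mfap3 and 1531 of 1532 of Sap30l, with 43.9% at Fam114a2 and 29.2% at Galnt10. Without the tallest fragment of each library the log2 ratio stayed above 0 for Nmur2, Fam114a2 and Galnt10, at 3.33, 3.06 and 2.89. The spans of Fam114a2 and Mfap3 overlap, so the fragment with 3643 reads, inside Mfap3, was counted for both genes. It made up most of the 4815 TFBS+CGI reads left at Fam114a2. The log2 ratio turned to -0.33 for Mfap3, on 191 and 75 reads. For Sap30l 1 read in TFBS+CGI and 4 in TFBS remained. As fragments with reads at matched depth the log2 ratios were 0.80 for Nmur2, 0.49 for Galnt10, 0.13 for Sap30l, -0.07 for Mfap3 and -0.30 for Fam114a2.

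**Figure D5:**
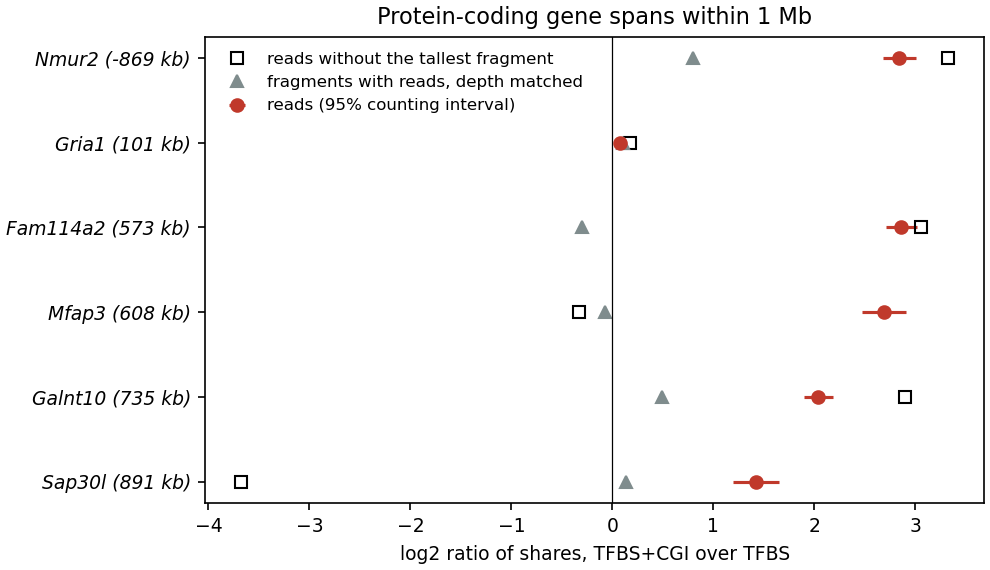
Log2 ratio of shares, TFBS+CGI over TFBS, for the protein-coding gene spans, 5 kb added on each side, with reads in both libraries. Distances from the viewpoint are in kb, negative on the side away from Gria1. Circles give reads with 95% counting intervals, squares reads without the tallest fragment of each library and triangles fragments with reads at matched depth; by reads Gria1 lies at 0.08 and the others between 1.42 and 2.86, while by fragments all lie between -0.30 and 0.80.

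A fragment can be read only where the enzymes cut, NlaIII at CATG and DpnII at GATC, words that read the same on both strands. The promoter sequences of Mfap3 and Nmur2 (RefSeq, GRCm38.p6, the assembly of mm10) are shown because their spans had high ratios while their starts had unlike counts. Each runs from 250 bases before to 50 after the gene start, 5′ to 3′ on the strand of the gene, with cut sites in capitals.
Mfap3 promoter, chr11:57518415-57518714, plus strand: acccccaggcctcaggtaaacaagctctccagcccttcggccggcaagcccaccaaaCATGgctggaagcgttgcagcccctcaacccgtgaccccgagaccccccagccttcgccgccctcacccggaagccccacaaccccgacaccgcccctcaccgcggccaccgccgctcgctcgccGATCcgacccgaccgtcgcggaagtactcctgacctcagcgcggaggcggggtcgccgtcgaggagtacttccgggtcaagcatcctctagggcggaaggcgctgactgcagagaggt
Nmur2 promoter, chr11:56040938-56041237, minus strand: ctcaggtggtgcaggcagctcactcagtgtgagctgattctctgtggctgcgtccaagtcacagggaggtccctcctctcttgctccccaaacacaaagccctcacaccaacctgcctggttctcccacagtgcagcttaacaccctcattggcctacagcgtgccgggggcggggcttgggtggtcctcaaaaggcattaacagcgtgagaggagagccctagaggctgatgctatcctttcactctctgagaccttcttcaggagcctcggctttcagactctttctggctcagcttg
The Mfap3 sequence holds 1 CATG and 1 GATC, and that of Nmur2 holds neither. Of 32851 such sequences of 300 bases in the RefSeq table, 61.1% hold CATG, 48.0% hold GATC and 21.1% hold neither; 4 of the 7 genes had an entry. No fragment of either library overlapped any of these 4. Within 5 kb of its start, Mfap3 was read 3654 times in TFBS+CGI and 10 times in TFBS, on 2 fragments each. Nearly all of these, 3643 and 9 reads, lay on the same single fragment. Within 5 kb of the Nmur2 start there were 355 and 292 reads on 4 fragments each, or 0.0851% and 0.224% of local reads, a log2 ratio of -1.40 that is opposite to that of the whole span. Galnt10 and Sap30l had 0 reads within 5 kb of their starts in both libraries.

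Most of these genes lie in the longest run of 50-kb windows of one direction on the Gria1 side, which was picked out after the values were seen. From 560 to 910 kb, chr11:57470388-57820387, 7 neighbouring windows were higher in TFBS+CGI, 6 of them by at least 2-fold, with log2 ratios from 0.45 to 2.94. The stretch held 6.91% of local reads in TFBS+CGI and 1.49% in TFBS, a log2 ratio of 2.22 (2.15 to 2.29). WT held 9.20% and CGI 1.055%, so in the summed stretch TFBS+CGI stood between TFBS and WT. Single windows did not all keep this order. TFBS+CGI and WT held 1.25% and 1.39% at chr11:57470388-57520387, but 3.22% and 0.0870% at chr11:57520388-57570387. At chr11:57570388-57620387 they held 0.690% and 4.25%. With fragments capped at the 99th percentile of reads the log2 ratio of TFBS+CGI over TFBS for the stretch was 2.13. By fragments with at least 1 read, the stretch had 42 in TFBS+CGI and 63 in TFBS. At matched depth these were 4.94% and 5.09% of local fragments, a log2 ratio of -0.04. This count weighs a fragment with few reads like a tall one, so it cannot decide on the difference in reads. For example, chr11:57543604-57543773 counts in both libraries, with 4532 reads in TFBS+CGI and 9 in TFBS. The next window outward, which holds Hand1 and Gm33026, held 1 read of TFBS+CGI and 1028 of TFBS, a log2 ratio of -11.68 (-16.99 to -9.20). Of the 1028 reads, 834 lay on 1 fragment in Gm33026 and 24 in the Hand1 span.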

How the data were processed

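The files hold 4C-seq restriction fragments with RPM values (reads scaled to the library total), as the authors deposited them. HISAT2 and mm10 are named in the submitters' processing notes; neither its version nor any read filter is given in the sources used here. Every value (100%) was a whole multiple of the smallest in its library, within 0.1 of a read, so reads were recovered by division. Of the 28 samples of the series, 13 had a processed file here. The 4 read from the Gria1 insertion site were used, 1 per condition, so no count test was possible and no p-value is given. Shares of local reads have Wilson intervals and log2 ratios exact conditional (Clopper-Pearson) intervals. In a window with 0 reads in a library, 3 reads were used. Genes came from a RefSeq table of GRCm38.p6. Depth matching drew 130345 reads without replacement, or used the expected number of fragments. Windows ran outward from 10 kb; the outermost 50-kb windows span 40 kb. The windows named were the 5 highest in each library and the 5 most unequal each way, of which examples are given; all protein-coding genes in range were measured. Members, windows and lists were chosen with earlier results of these data known. Alternatives were the scale, the distance left out, the range, window placement, depth matching, capping at the 99th percentile and covered fragments. Python 3.11.15, numpy 2.4.6, scipy 1.17.1 and pandas 2.3.3 were used.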

Additional observations from a re-analysis of the deposited data

Results flagged for a closer look

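The reads of the donor fragment near Sox1 lie outside the comparison of local shares and stood above the wild type level in the TFBS library, with 709 reads against 22 in WT. The fragment ranked 5 of 258 fragments with reads on chromosome 8 in that library. In RPM it had 306 in TFBS, 2.90 in WT and 0.394 in the library labelled TFBS+CGI.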

How the results depend on the processing

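With 1 library per condition no replicate could be left out. No paired analysis was possible because each condition has 1 library. Of 60 alternative values, 42 stayed within the counting interval or within 1.5 times the count, 15 moved further and 3 changed direction; the cause was not tested. For the Gria1 promoter window the log2 ratio was 0.35 with covered fragments, -2.23 as a share of all chromosome 11 reads, -1.96 with 10 kb on each side and -1.58 without the tallest fragment. The value of 0.35 rests on few fragments, 7 in TFBS+CGI and 8 in TFBS before depth matching. For the Gria1 span it was 0.035 on the deposited scale, 0.26 as a share of chromosome 11, 0.14 with capped fragments, 0.11 with covered fragments, 0.15 within 500 kb and 0.18 without the tallest fragment. For the Gria1 side it was -0.0087 within 500 kb (-0.022 to 0.0051, an interval that holds both signs), 0.080 with 25 kb left out and 0.076 without the tallest fragment. For the near share it was -0.022 with covered fragments, 0.12 with capped fragments and 0.26 within 500 kb. The 6 lower windows of 50 kb became 10 with windows shifted and 12 with 25 kb left out. Depth matching kept 67 of 67 higher and 58 of 59 lower windows of 10 kb. Leaving out the tallest fragment, or reads under 2% of the other library, was chosen after seeing the data.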
